A study of Caenorhabditis elegans with 6 samples.

Results

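The miR-35 family of *Caenorhabditis elegans* consists here of 8 microRNAs (miRNAs), cel-miR-35-3p, cel-miR-36-3p, cel-miR-37-3p, cel-miR-38-3p, cel-miR-39-3p, cel-miR-40-3p, cel-miR-41-3p and cel-miR-42-3p, each the 3p arm of its hairpin. They were taken by name from the deposited count files of the single libraries, which list 437 mature miRNAs in all, and the species prefix is left out from here on. The libraries came from whole worms of the wild-type N2 strain, kept on nematode growth medium (NGM) and fed OP50 bacteria. For the 3 cadmium libraries, L4 larvae (the last larval stage) met 60 µmol/L cadmium chloride (CdCl2) in the medium at 20 °C. The 3 control libraries came from untreated worms of the same strain, also at 20 °C. The labels give no exposure time, and they say neither whether embryos or adults were present at harvest nor whether the 3 libraries of a group came from separate cultures, so p-values measure the spread between these libraries, which may be technical. The study asked how RNA and protein of the worm change after cadmium exposure, and these libraries cover its miRNAs.

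A miRNA is cut from a hairpin precursor with a 5p and a 3p arm. One arm, the guide, is loaded into an Argonaute protein and pairs with target mRNAs through its seed, the bases near its 5′ end, while the other, the passenger, is mostly degraded. The members of this family share a seed and act redundantly. They are known for high levels in oocytes and embryos, and worms without the whole family die as embryos. Known targets include the pro-apoptotic BH3-only gene *egl-1* and the RNA-binding protein genes *sup-26* and *nhl-2*, which link the family to programmed cell death, sex determination and fecundity. Late in embryogenesis the family is cleared by a decay pathway that needs the ubiquitin ligase receptor EBAX-1. The libraries hold miRNAs of whole animals, so the tissue or stage in which the members were made was not measured here.

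In the Ensembl annotation of the WBcel235 genome, 7 of the 8 hairpins lie head to tail on the plus strand of chromosome II within 797 bases, from 11537608 (start of mir-35) to 11538404 (end of mir-41). The gaps between neighbouring hairpins run from 2 bases (mir-37 to mir-38) to 61 bases (mir-38 to mir-39). All 7 lie inside the protein-coding gene Y62F5A.9, which is on the minus strand, and overlap no exon of a protein-coding gene. The mir-42 hairpin lies 351406 bases further along the same strand, at 11889811 to 11889905, outside protein-coding genes. It is followed by mir-43 after 4 bases and mir-44 after another 15 bases, neither of which belongs to the family. All 8 guide arms are annotated with a length of 22 bases, so levels of different members are compared here without a correction for length, although capture into a library can differ between sequences.

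**Figure D1:**
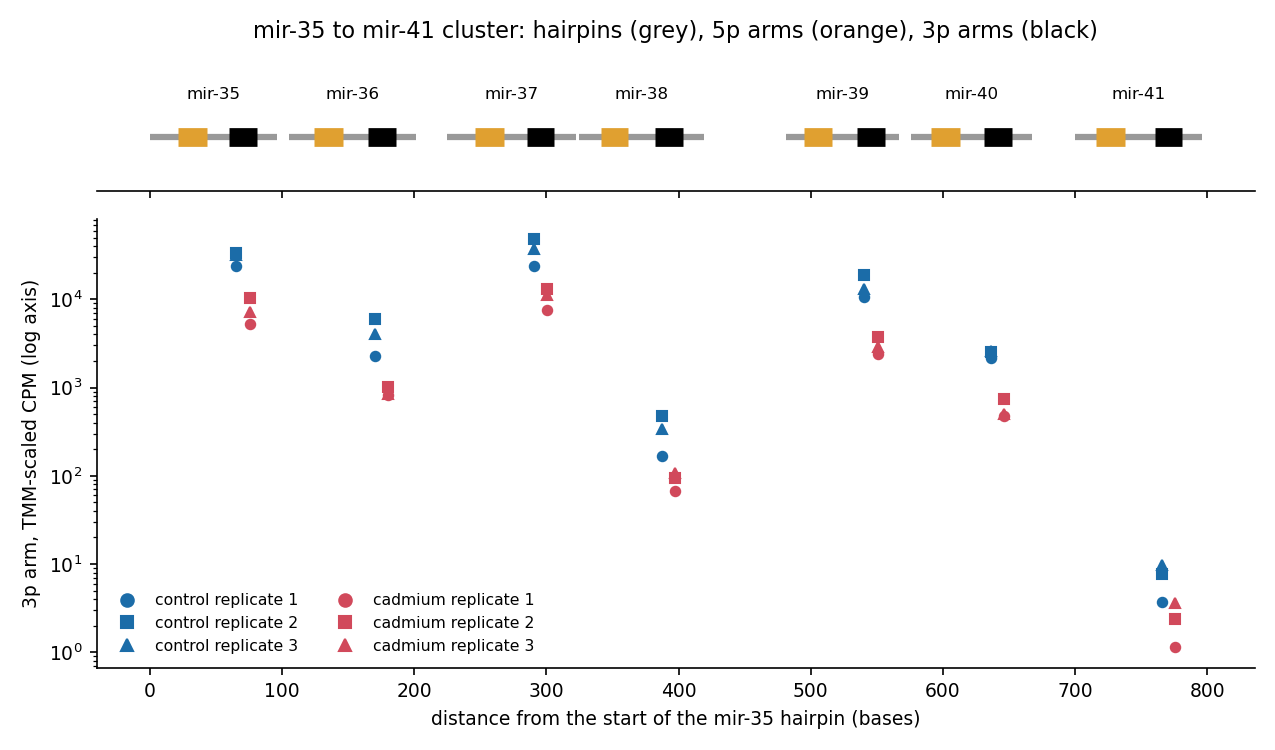
Levels of the 7 guide arms of the mir-35 to mir-41 cluster in the 6 libraries, as TMM-scaled CPM on a log axis, against the distance in bases from the start of the mir-35 hairpin, with the hairpins and arms drawn to scale above. The 3 control points lie above the 3 cadmium points at each of the 7 positions, and level does not follow position, since miR-37-3p is highest and its neighbour miR-38-3p is among the lowest.

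The libraries held between 1640693 (control replicate 1) and 3917414 (control replicate 3) miRNA counts. Levels are given as counts per 1000000 scaled by the trimmed mean of M-values (TMM-scaled CPM), and changes as log2 fold changes of cadmium against control from edgeR's quasi-likelihood test, with p-values adjusted over all 208 miRNAs tested. The detection floor of 3 counts was worth 0.761 TMM-scaled CPM in the deepest library and 1.60 in the shallowest. Of the 208 miRNAs, 21.6% passed an adjusted p of 0.05 in either direction, 12.0% as lower and 9.62% as higher under cadmium. An unadjusted p under 0.05 was reached by 35.1% of them, and 28.8% passed with DESeq2.

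The family took a smaller part of the libraries from cadmium-exposed worms. Its 8 guide arms made up 7.25%, 11.7% and 9.05% of all miRNA counts in the controls (replicates 1, 2 and 3, the order used throughout). The cadmium libraries gave 1.80%, 2.63% and 2.03%. The lowest control library lay far above the highest cadmium library, and the exact binomial 95% intervals, which cover counting error only, ran from 7.21% to 7.29% and from 2.62% to 2.65% in those. All 8 members passed the threshold as lower under cadmium, against 12.0% of all miRNAs tested. Their log2 fold changes ran from −2.24 to −0.69 with a median of −1.92, beside a median of 0.0039 over all miRNAs tested. All 8 had their 3 control libraries above their 3 cadmium libraries, as did 20.7% of all miRNAs tested. In RNA from whole animals, fewer cells of a type and less of the miRNA per cell cannot be told apart. Of the 8 calls, 6 held when any single library was left out, and those of miR-41-3p and miR-42-3p did not, as given for each of them.

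**Figure D2:**
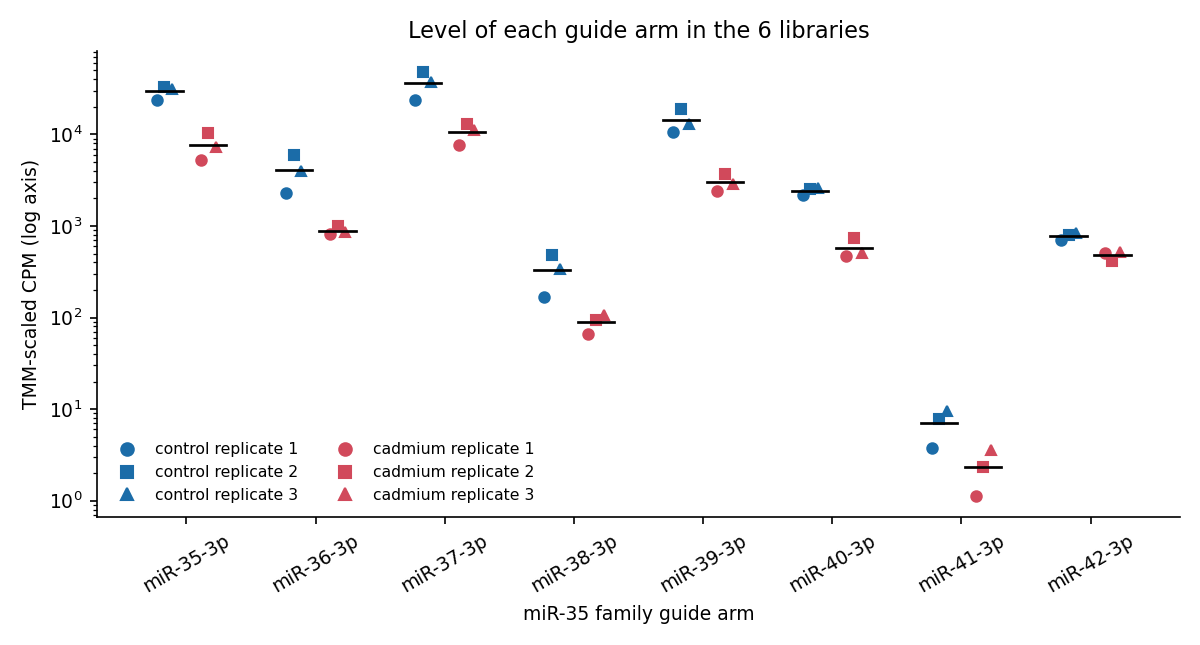
TMM-scaled CPM (log axis) of each of the 8 guide arms in the 3 control (blue) and 3 cadmium (red) libraries, with the group means as black lines. For all 8 members the lowest control library lies above the highest cadmium library, by the smallest margin for miR-41-3p.

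The most abundant members were miR-37-3p, miR-35-3p and miR-39-3p, which together held between 89.1% and 92.3% of the family's counts in every library. miR-37-3p, the third hairpin of the cluster, stood at 23565, 48175 and 37413 TMM-scaled CPM in the controls and at 7652, 12976 and 11272 after cadmium. Every control library was above every cadmium library, and within each group replicate 1 was the lowest. Its log2 fold change was −1.77 (SE 0.28, adjusted p 0.00105 in edgeR). miR-35-3p, from the first hairpin and the namesake of the family, stood at 24018, 33080 and 31583 in control and at 5224, 10444 and 7272 in cadmium libraries. The cadmium libraries varied more than the controls, with coefficients of variation of 34.4% and 16.4%, and the groups were still apart (log2 fold change −1.95, SE 0.26, edgeR adjusted p 0.000392). miR-39-3p stood at 10637, 18848 and 13163 in control and at 2385, 3728 and 2898 in cadmium libraries. Its lowest control library was 2.85 times its highest cadmium library, and the control mean was 4.73 times the cadmium mean. With a log2 fold change of −2.24 (SE 0.25) it had the lowest fitted value of all 208 miRNAs.

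In the middle of the range were miR-36-3p, miR-40-3p and miR-38-3p, which fell by amounts like those of the abundant members. miR-36-3p stood at 2300.4, 6017 and 4002 TMM-scaled CPM in control and at 822, 1006 and 850.4 in cadmium libraries. The controls differed among themselves, with a coefficient of variation of 45.3%, while the cadmium libraries lay close together at 11.1%. Its log2 fold change was −2.20 (SE 0.30). miR-40-3p stood at 2159, 2516 and 2604 in control and at 475, 738 and 507 in cadmium libraries. Here the controls lay close together, at 9.71%, and the log2 fold change was −2.08 (SE 0.22, adjusted p 0.000126 in edgeR). miR-38-3p, separated from the mir-37 hairpin by the shortest gap of the cluster, stood at 168, 481 and 337 in control and at 66.9, 94.9 and 107 in cadmium libraries. Its control replicate 1 was well below the other controls, at 1.58 times the highest cadmium library, and the log2 fold change was −1.88 (SE 0.36, adjusted p 0.00344 in edgeR). The log2 fold changes of these 3 members and the 3 abundant ones ran from −2.49 to −1.51 over the alternative scalings, filters, tests and left-out libraries, and they stayed past the threshold in all 90 of those fits.

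miR-41-3p, from the last hairpin of the cluster, was at the edge of detection. The controls held 7, 20 and 38 reads of it and the cadmium libraries 4, 8 and 8, or 3.74, 7.73 and 9.64 against 1.13, 2.36 and 3.57 TMM-scaled CPM. The groups did not overlap, but the lowest control and the highest cadmium library differed by 1.05 times, and the exact Poisson 95% intervals of their counts, 2.81 to 14.4 for the 7 counts and 3.45 to 15.8 for the 8, overlap widely. The log2 fold change was −1.70 (SE 0.47, adjusted p 0.0297 in edgeR). Leaving out any 1 of 4 libraries ended the call: the adjusted p was 0.0697 without the second control, 0.15 without the third, 0.0763 without the first cadmium library and 0.0753 without the second. The level of miR-37-3p in control libraries was 5171 times that of miR-41-3p, although both hairpins lie in the same cluster. How reads that match several members were counted is not stated, and its part in this spread was not tested.

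miR-42-3p, the member encoded away from the cluster, fell least. It stood at 695, 802 and 829 TMM-scaled CPM in the controls and at 506, 415 and 526 after cadmium. Both groups were tight, with coefficients of variation of 9.12% and 12.2%, and did not overlap. The log2 fold change was −0.69 (SE 0.19, adjusted p 0.0297 in edgeR), and the control mean was 1.61 times the cadmium mean, against 2.98 to 4.73 times for the other 7. Here too 4 libraries each ended the call when left out, with an adjusted p of 0.0569 without the second control, 0.145 without the third, 0.0884 without the second cadmium library and 0.0614 without the third. Upper-quartile scaling (0.0579) and no filter (0.0504) ended it as well. Its log2 fold change stayed between −0.88 and −0.58 throughout.

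Whether a member changed by a different amount from the rest was asked by fitting edgeR with the summed counts of the other 7 guide arms as the library size, a comparison chosen after seeing the data. In this fit miR-42-3p was 1.29 log2 units higher under cadmium relative to the other members (SE 0.41, edgeR adjusted p 0.00232), and the value lay between 1.01 and 1.53, with adjusted p-values up to 0.0253, when single libraries were left out. In the same fit 86.1% of all miRNAs tested passed in either direction. Passing it was therefore not particular to miR-42-3p. The other 7 members differed from the rest of the family by −0.37 (miR-39-3p) to 0.28 (miR-37-3p) on the log2 scale, with adjusted p-values from 0.361 to 0.808. Their standard errors of 0.35 to 0.65 leave room for differences of this size.

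The make-up of the family sum gave the same picture without any scaling. miR-42-3p held 1.09%, 0.730% and 0.922% of the family's counts in the controls and 2.96%, 1.41% and 2.24% after cadmium, so that all cadmium libraries were above all controls (exact permutation p 0.1, two-sided). miR-37-3p also held a larger part in all cadmium libraries, at 45.6 ± 2.15% (SD, n = 3) against 40.8 ± 3.44% (n = 3; exact permutation p 0.1). Its difference of 4.80 percentage points fell to 2.92 without the first control library, where it was lowest. miR-39-3p held a smaller part, at 13.0 ± 0.824% against 16.2 ± 1.35% (n = 3 each; exact permutation p 0.1). Against the geometric mean of the other members, miR-42-3p moved by 1.24 on the log2 scale and miR-39-3p by −0.52 (exact permutation p 0.1 each), while miR-37-3p moved by 0.029 (p 0.7). With 3 libraries against 3, 0.1 is the smallest p this test can give, and these differences cannot pass 0.05. The shares of the other 5 members overlapped between the groups, with exact p-values from 0.4 to 0.7. miR-35-3p held 34.3 ± 3.91% in control and 32.3 ± 2.76% in cadmium libraries (n = 3 each), and the others stayed at 4.51 ± 0.928% and 3.95 ± 0.742% for miR-36-3p, 2.86 ± 0.555% and 2.48 ± 0.307% for miR-40-3p, 0.359 ± 0.0876% and 0.390 ± 0.0665% for miR-38-3p, and 0.00788 ± 0.00253% and 0.00997 ± 0.00462% for miR-41-3p. For a single library the exact binomial 95% interval reached at most 0.428 percentage points to either side of a share. It was close to the SD between libraries for miR-38-3p (0.0586 points at its widest, beside SDs of 0.0876 and 0.0665), and for miR-41-3p it was wider than the SD, at up to 0.0117 points.

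**Figure D3:**
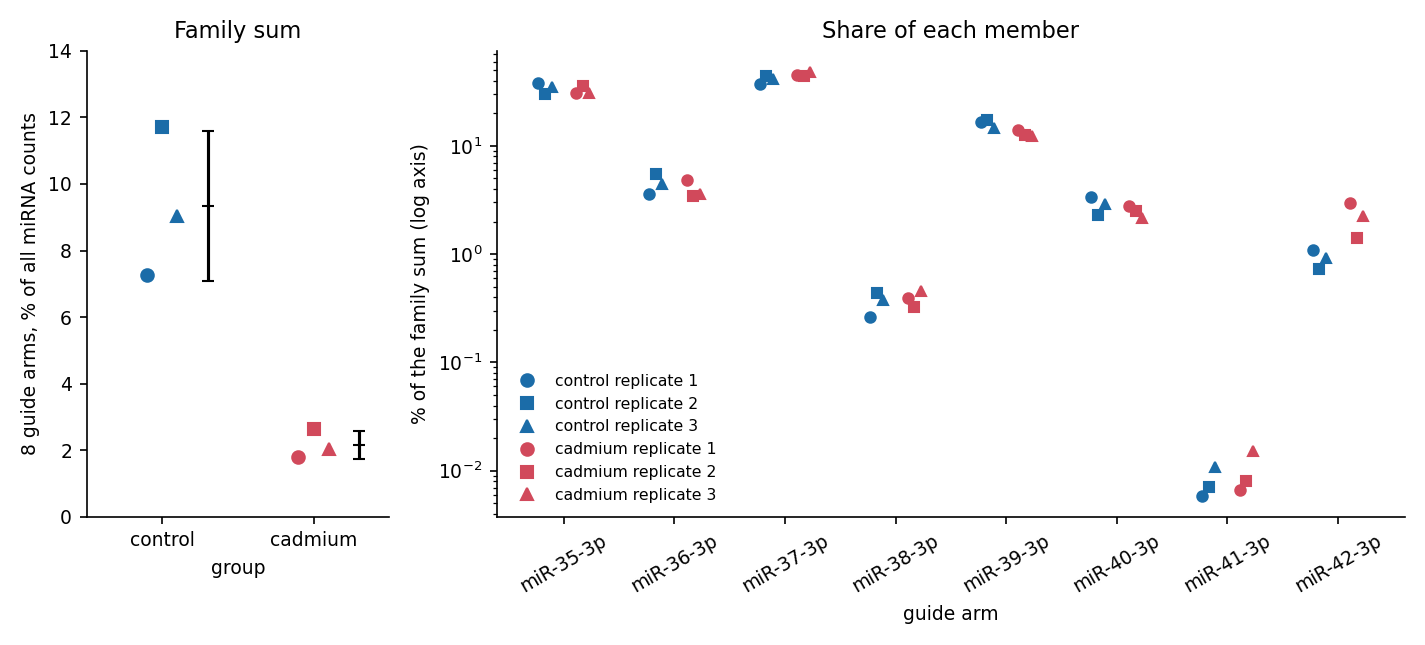
Left, the summed counts of the 8 guide arms as a percent of all miRNA counts in each library, with mean and SD beside the points. Right, the percent of that sum held by each member (log axis), where miR-42-3p and miR-37-3p lie higher and miR-39-3p lower in all 3 cadmium libraries, and the other 5 members overlap.

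The order of the members differed between libraries only by swaps of neighbours. By control mean it ran from miR-37-3p through miR-35-3p, miR-39-3p, miR-36-3p, miR-40-3p, miR-42-3p and miR-38-3p down to miR-41-3p. It held in 3 of the 6 libraries, control replicates 2 and 3 and cadmium replicate 2. The neighbours miR-37-3p and miR-35-3p were close, with count ratios from 0.981 to 1.55, and changed places in control replicate 1. miR-40-3p exceeded miR-42-3p by 3.10 to 3.14 times in the control libraries but only by 0.939 to 1.78 times in the cadmium libraries, and the pair changed places in cadmium replicates 1 and 3. miR-36-3p and miR-40-3p were also close in control replicate 1, at 1.07 times. The other neighbours kept their order in all 6 libraries, at ratios of at least 1.67.

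The passenger arms of the family, miR-35-5p to miR-42-5p, were rare. Together they reached 138, 158 and 279 counts in the controls and 70, 166 and 41 after cadmium, or between 0.555 and 1.67 passenger counts for every 1000 guide counts. These raw sums, which are not scaled to library size, overlapped between the groups. In TMM-scaled CPM, 4 of the 8 passenger arms had every control library above every cadmium library. They were miR-39-5p, miR-41-5p, miR-42-5p and miR-35-5p, the last of which was too low to be tested. Over all miRNAs tested, which leave out such low ones, the share was 20.7%. miR-41-5p was the exception to the names of the arms: it outnumbered miR-41-3p by 2.25 to 13.1 times in all 6 libraries and held between 34.3% and 66.7% of all passenger counts. For mir-41, then, the deposited counts run against the label of guide for the 3p arm, though miR-41-3p had only 4 to 38 reads per library. How reads that match several members were counted is not stated, and its part in this ratio was not tested. Without both arms of mir-41 there were 0.387, 0.214 and 0.367 passenger counts for every 1000 guide counts in the controls. After cadmium there were 0.762, 0.754 and 0.438. These ratios rest on 23 to 130 passenger counts per library, and their difference was not tested. miR-42-5p alone held 20, 19 and 38 of those counts in the controls and 25, 23 and 11 after cadmium. A single arm therefore weighs heavily in the ratios, and they do not describe all hairpins of the family alike. miR-41-5p stood at 49.1, 37.5 and 37.8 TMM-scaled CPM in control and at 6.81, 26.9 and 8.04 in cadmium libraries, where replicate 2 was far above the others but still below every control. All 3 tested passenger arms had fitted log2 fold changes below 0, beside a median of 0.0039 over all miRNAs tested. Of the 3, 2 had an unadjusted p under 0.05 in edgeR, as did 35.1% of all miRNAs tested. Only miR-41-5p passed the adjusted threshold as lower (12.0% of all miRNAs tested), by 1.55 on the log2 scale in edgeR, with an SE of 0.46 and an adjusted p of 0.0362. That call was lost without any 1 of 5 libraries, namely the first, the second or the third control (adjusted p 0.133, 0.0569 and 0.116) and the first or the third cadmium library (0.0718 and 0.14). Without the second cadmium library the log2 fold change was −2.48 (adjusted p 0.00103).

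The other tested passenger arms were miR-39-5p, at −1.34 (SE 0.49, adjusted p 0.0706 in edgeR, and 0.0468 without the first cadmium library), and miR-42-5p, at −0.53 (SE 0.31, adjusted p 0.26 in edgeR). The remaining 5 were too low to be tested. For miR-35-5p the controls held 3, 6 and 7 reads and the cadmium libraries 1, 3 and 1. The balance of arms could be followed for mir-41 and mir-42 among 63 hairpins whose arms both averaged at least 10 counts. The log2 ratio of the 3p to the 5p arm differed between the groups by 0.28 (SE 0.60) for mir-41 and by −0.14 (SE 0.35) for mir-42, each with an adjusted p of 0.945 in limma, beside 2 of 63 hairpins that passed. The sign of both differences changed with the library left out.

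Other miRNAs were set beside the family from lists of neighbours, of embryonic miRNAs and of miRNAs tied to tissues or larval timing. Relative to all miRNAs, the mir-42 neighbours did not follow miR-42-3p past the threshold. miR-43-3p stood at 23.0, 94.6 and 61.9 TMM-scaled CPM in control and at 47.7, 26.9 and 67.9 in cadmium libraries, with overlapping groups and a fitted log2 difference of −0.35 (SE 0.46, adjusted p 0.612 in edgeR). miR-44-3p was higher in all 3 cadmium libraries, with a fitted log2 difference of 0.57 (SE 0.21; adjusted p 0.0656 in edgeR, 0.0366 with DESeq2 and 0.0376 in edgeR without the first cadmium library). Its counts are identical to those listed for miR-45-3p, so this pair cannot be told apart. Of miR-43-3p and miR-44-3p, 0 passed in edgeR (21.6% of all miRNAs tested), 1 had an unadjusted p under 0.05 (35.1%) and 1 passed with DESeq2 (28.8%).

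The miR-51 family, which like the miR-35 family is needed for embryonic development but is also present in many tissues later, gave no lower call. Of its 6 members, miR-51-5p to miR-56-3p, 0 were lower past the threshold in edgeR (12.0% of all miRNAs tested), and 1 was higher (9.62%). DESeq2 gave the same counts, where 28.8% of all passed in either direction. That one was miR-53-5p, at 1966, 2539 and 1991 TMM-scaled CPM in the controls and 2351, 4313 and 4626 after cadmium, a log2 fold change of 0.80 with an SE of 0.25 and an edgeR adjusted p of 0.0437. Its groups overlapped, and the call was lost without any single library other than cadmium replicate 1 (adjusted p from 0.0595 to 0.184) and with total-count (0.101) or upper-quartile scaling (0.0564). The log2 fold changes of the other 5 ran from −0.41 to 0.32, and that of miR-54-3p, near 0, changed sign with the scaling. The miR-51 family held between 8.51% and 11.5% of the counts of every library. The counts of the miR-35 family were 0.630, 1.06 and 0.976 times those of the miR-51 family in the controls and 0.211, 0.257 and 0.197 times after cadmium. With the counts of the mir-35 to mir-41 cluster as the library size, every member of the miR-51 family was higher under cadmium, by 1.47 (miR-56-3p) to 2.68 (miR-53-5p) on the log2 scale, with adjusted p-values of at most 0.000268 in edgeR, in the fit where 86.1% of all miRNAs passed.

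The larval timing miRNAs lin-4-5p, let-7-5p, miR-48-5p, miR-84-5p and miR-241-5p, which drive stage transitions in the worm, had log2 fold changes from 0.16 to 0.61, of which that of lin-4-5p changed sign to −0.039 with total-count scaling. In edgeR 0 of these 5 passed (21.6% of all miRNAs tested), and 3 had an unadjusted p under 0.05 (35.1%). With DESeq2 2 passed (miR-48-5p and miR-84-5p, against 28.8% of all). Without the first cadmium library 3 passed in edgeR. Over all miRNAs, 22 to 52 passed in the fits that left out single libraries. Of 7 miRNAs restricted to or enriched in tissues, 0 passed in edgeR (21.6% of all miRNAs tested) or with DESeq2 (28.8%), and 0 had an unadjusted p under 0.05 (35.1%). They were miR-1-3p of muscle at 0.30 (SE 0.19), miR-60-3p of the intestine at −0.21 (SE 0.20) and miR-228-5p of glia at 0.065 (SE 0.17). In neurons, lsy-6-3p was at −0.25 (SE 0.25) and miR-124-3p at 0.26 (SE 0.36). For gonad and intestine, miR-240-3p was at 0.094 (SE 0.33) and miR-786-3p at −0.44 (SE 0.47). The 7 values ran from −0.44 to 0.30, above that of every member of the miR-35 family. The signs of miR-240-3p and miR-228-5p changed with total-count scaling.

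**Figure D4:**
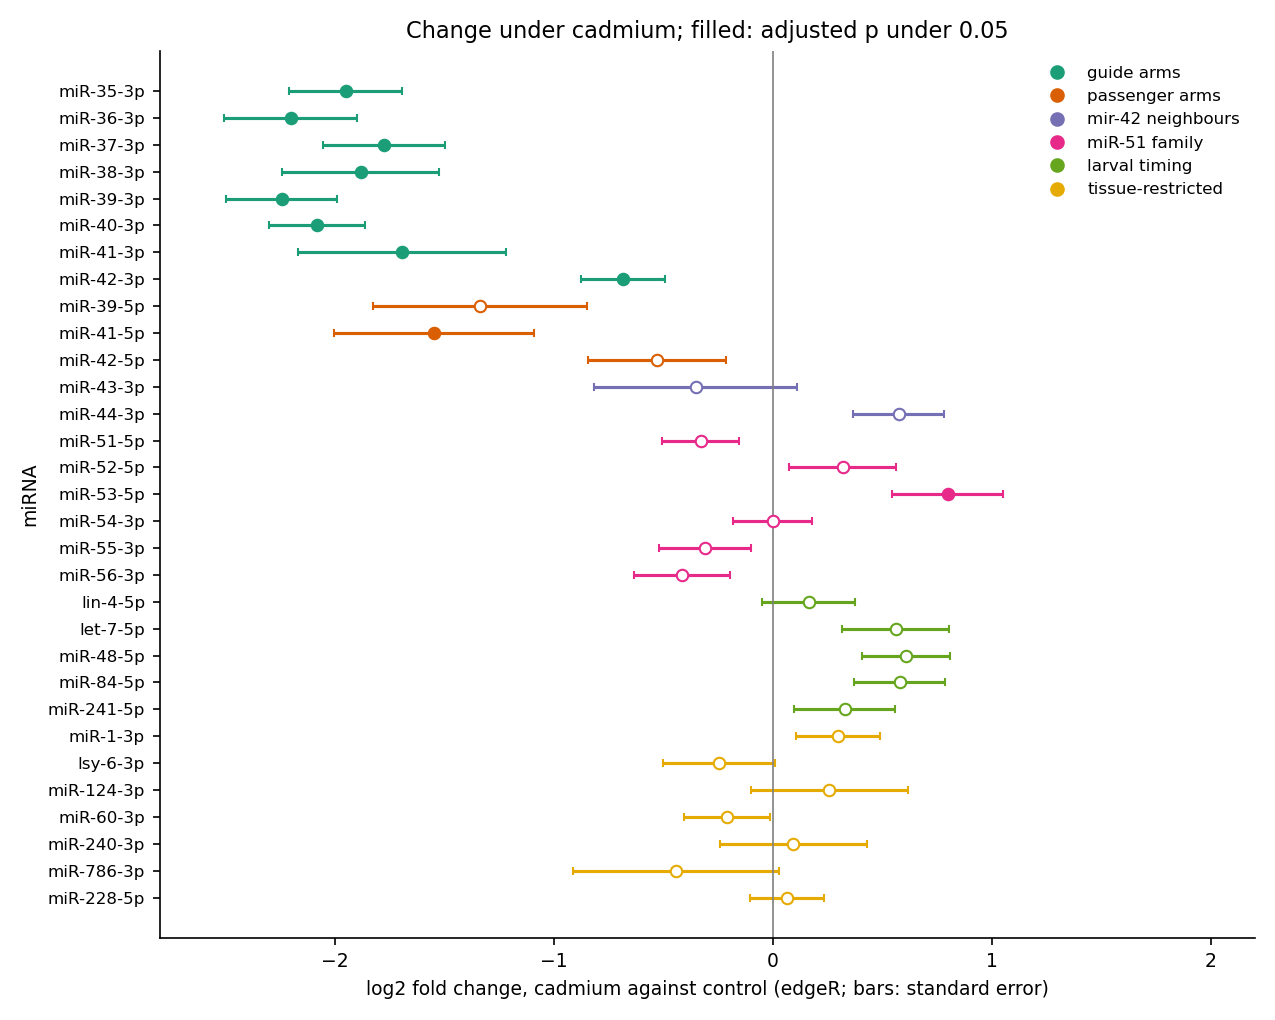
Log2 fold changes of cadmium against control (edgeR, with standard errors) of the 8 guide arms, the 3 tested passenger arms and the comparison lists; filled points passed an adjusted p of 0.05. The 7 guide arms of the cluster lie between −2.24 and −1.70 and miR-42-3p at −0.69. The 3 passenger arms lie between −1.55 and −0.53, and the miRNAs of the comparison lists between −0.44 and 0.80.

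The miRNAs outside the family whose profile over the 6 libraries was most like that of the family sum were found by the root mean square difference between log2 levels, each centred on its own mean. miR-77-3p was nearest, at 0.228, closer than 4 of the members, miR-36-3p at 0.247, miR-38-3p at 0.267, miR-41-3p at 0.454 and miR-42-3p at 0.707. The profiles of the members are part of the sum, which draws the abundant ones towards it. It went from 10303 ± 809 to 2888 ± 331 TMM-scaled CPM (SD, n = 3 libraries each), with no control below 9370.5 and no cadmium library above 3266. miR-70-3p followed at 0.403, with 9110.2 ± 720.0 against 3542 ± 534 TMM-scaled CPM and a log2 fold change of −1.36 (SE 0.18). The next 3 were less abundant: miR-4813-3p (0.417), miR-83-5p (0.486) and miR-1819-3p (0.517), with log2 fold changes of −1.42, −1.57 and −1.04. All 5 passed the threshold in edgeR, as the measure favours miRNAs that are lower in the cadmium libraries, and the call of miR-1819-3p was lost without the third control (adjusted p 0.0535).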

How the data were processed

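Small RNA libraries were made from total RNA extracted with TRI reagent, using a multiplexed kit from New England Biolabs, and were sequenced on an Illumina NextSeq instrument, per the labels' protocols. The submitters' processing notes name cutadapt 3.4, Bowtie2 2.4.2, HISAT2 2.2.1 and the WBcel235 build among others, without saying which made the miRNA values; the miRNA annotation and the handling of reads matching several miRNAs are not given in the sources used here. The authors deposited, for each library, a count of reads for every mature miRNA, in whole numbers. The deposited CPM files hold the same counts scaled to a total of 1000000 by the authors and were used only in alternatives. Another 12 per-sample columns in combined tables stayed out, since no title names them.

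Groups and replicate numbers came from the titles. Counts were analysed in R 4.3.3 with edgeR 4.0.16 (filterByExpr, which kept 208 of 437 miRNAs, TMM scaling, quasi-likelihood F test, two-sided, Benjamini-Hochberg over the 208). Each standard error is the fitted change divided by the square root of its F. Arm ratios, log2((3p + 0.5)/(5p + 0.5)), were tested with limma 3.58.1 over 63 hairpins. Shares were compared by an exact permutation test over 20 splits. Alternatives were other scalings, no filter, DESeq2 1.42.0, limma on log2(CPM + 1) and log2(CPM + 0.1), a replicate block and leaving out each library. The fits were tested on simulated data. Named miRNAs were all members, their passenger arms, fixed lists and the 5 nearest profiles. Members and lists were chosen with earlier results of these data known. Library totals ran from 1640693 to 3917414 counts, and the files name no molecular identifiers, so intervals cover counting error only. No pair of libraries in a group agreed within sampling noise. Mature sequences were not used here.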

Additional observations from a re-analysis of the deposited data

How the results depend on the processing

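Over 15 alternatives each, the log2 fold changes of the 8 guide arms gave 120 values, of which 108 stayed past the threshold, 12 did not and 0 changed sign. The 12 came from miR-41-3p and miR-42-3p, and between 6 and 8 members passed in every fit. With total-count scaling the median of all tested miRNAs moved to −0.16, with limma on log2(CPM + 1) to −0.19 and on log2(CPM + 0.1) to −0.20, so values near 0 are relative to it. Without the 3 most abundant miRNAs in the total, the family share was 14.6% in control and 3.94% in cadmium libraries, by construction.

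Over all 208 miRNAs tested, libraries that share a replicate number did not move together (correlations of their deviations −0.0292, −0.285 and −0.25). The family members differed from this. Replicate 1 was the lowest control library for 8 of 8 members and the lowest cadmium library for 7. Whether the replicate numbers mark pairs was not tested. With the replicate number as a block, 17 miRNAs passed, against 45 without, 6 members among them (miR-41-3p had an adjusted p of 0.0508 and miR-42-3p 0.0975), with 0 passenger arms and 0 of the miR-51 family. Of the 5 miRNAs with the nearest profiles, miR-4813-3p and miR-1819-3p lost their calls with the block (adjusted p 0.0715 each). The change of miR-42-3p relative to the other members was 1.24 with the block, and its share differed by 1.29 percentage points.

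Among the lists, passenger arms passing were 2 with limma on log2(CPM + 1). The miR-51 family had 0 with total-count or upper-quartile scaling and with both limma fits, where 1 to 3 had an unadjusted p under 0.05. The mir-42 neighbours had 1 with DESeq2 size factors, DESeq2 and no filter, and the timing miRNAs 1, 2 and 3 in those. With single libraries left out the counts ran from 0 to 1 for passenger arms, 0 to 1 for the neighbours, 0 to 2 for the miR-51 family, 0 to 3 for timing and 22 to 52 over all miRNAs. The cause was not tested.

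Values near 0 changed sign. miR-54-3p was at 0.025 with DESeq2 size factors, 0.031 with the upper quartile, 0.062 with no filter and 0.025 with DESeq2. Total-count scaling put lin-4-5p at −0.039, miR-240-3p at −0.13 and miR-228-5p at −0.12, and the limma fits put miR-240-3p at −0.25 and −0.25 and miR-228-5p at −0.13 and −0.13. The block put miR-240-3p at −0.057. Relative to the geometric mean of the other members, miR-38-3p moved by −0.0018. With single libraries left out, miR-43-3p ran from −0.74 to 0.11, miR-54-3p from −0.078 to 0.11, lin-4-5p from −0.0034 to 0.40, miR-124-3p from −0.13 to 0.56, miR-240-3p from −0.43 to 0.44 and miR-786-3p from −1.06 to 0.0033. The arm ratio of mir-41 ran from −0.33 to 0.83 and that of mir-42 from −0.36 to 0.038. The share of miR-38-3p ran from −0.017 to 0.070 and that of miR-41-3p from −0.00055 to 0.0038 percentage points, and relative to the other members miR-38-3p ran from −0.063 to 0.28 and miR-41-3p from −0.12 to 0.57. The arm ratio of mir-41 and miR-39-5p gave no value without control replicate 3, and neither arm ratio did with a minimum mean of 50 counts. Depth limits miR-41-3p and the passenger arms.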

Other observations

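Within the groups, single libraries were low or high for many members at once. Control replicate 1 was the lowest of the 3 control libraries for 8 of 8 members, and it was also the library with the lowest total. Control replicate 2 was the highest for 5 members and control replicate 3 for 3. Among the cadmium libraries, replicate 1 was the lowest for 7 members and replicate 2 for 1, miR-42-3p. Cadmium replicate 2 was the highest for 5 members and cadmium replicate 3 for 3. Cadmium replicate 1, with 3354270 counts, did not have the lowest total of its group. In log2 units around the group mean, control replicate 1 lay at −0.16 for miR-40-3p and −0.15 for miR-42-3p but at −0.73 for miR-36-3p and −0.84 for miR-38-3p.

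In levels, miR-37-3p and miR-35-3p had ranks 7 and 8 among all 437 miRNAs by mean TMM-scaled CPM in the control libraries and ranks 20 and 26 in the cadmium libraries.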
